A study of Mus musculus with 4 samples.

Results

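The comparison described here is that of total RNA between the genotype labels of the study: the array of total RNA labelled Npm1+/- against the array of total RNA labelled Npm1+/+, which are 2 of the 4 arrays of the series. Its members are the genes measured by a probe set with 1 gene symbol, each represented by its brightest probe set by the mean of the 4 arrays, and kept where the highest of the 4 values reached the median of all values, 7.53. This left 7180 of 12394 genes. Nearest to that floor, Ksr1 was kept with a highest value of 7.53 and a difference of 0.40, and Hap1 was not kept with a difference of -0.19.

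The cells were mouse embryonic fibroblasts of strain C57/BJ6, as the labels spell it, labelled either Npm1+/+, with both copies of Npm1 intact and called wild type below, or Npm1+/-, with 1 copy lost or disrupted and called heterozygote. Each genotype label has 1 array of total RNA and 1 of ribosome-bound RNA, called polysome RNA below, from sucrose gradient fractionation. The RNA was converted to cDNA, amplified by T7 transcription and labelled with biotin. No group carries any other stated allele or agent. The labels state neither how Npm1 was disrupted nor how many embryos or cultures stand behind an array, so a feature of a single culture and an effect of genotype cannot be told apart.

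Nucleophosmin, the product of Npm1, shuttles between nucleolus and cytoplasm, helps to assemble ribosomes, acts as a histone chaperone and binds the tumour suppressor Arf. Embryonic fibroblasts are connective tissue cells that make collagen, laminin and other matrix proteins, adhere through integrins tied to actin, and answer serum with a burst of immediate early genes. Total RNA reports the steady-state level of a transcript whether or not it is being translated.

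All values are log2 expression values as deposited, and a difference is always the value of the array labelled heterozygote minus that of the array labelled wild type, so that a difference of 1 in size is 2-fold. Where 2 values of a gene are given, the wild-type label comes first. With 1 array a side there is no replicate error, no test and no p-value, and a gene is called higher or lower by size alone, at 2-fold or more. The spread that could be measured was that between probe sets of a gene: over 2702 genes with another probe set at or above the floor, their differences departed from each other with an SD of 0.32. The same difference in polysome RNA, which comes from separate arrays under the same genotype labels, is given beside many genes; whether it comes from the same cultures is not known, so it is not a replicate.

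Npm1 did not follow the labels. It read 11.91 in total RNA labelled wild type and 11.96 in that labelled heterozygote, a difference of 0.05, and another probe set differed by 0.07. In polysome RNA it read 12.93 and 12.84. None of these differences came near 2-fold. Where the probes lie relative to the disrupted part of the gene is not stated. The arrays are therefore called the library labelled wild type and the library labelled heterozygote, and every direction below rests on those labels.

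Controls were close between the libraries with a few exceptions. The 18 hybridisation spike-ins differed by -0.23 to 0.27 with a median of 0.00, and the array medians over all probe sets lay between 7.47 and 7.59. The 3-prime minus 5-prime value of actin was 0.06 and 0.02, that of Gapdh -0.01 and 0.12, that of the transferrin receptor 1.72 and 1.47, and that of pyruvate carboxylase 0.49 and 0.27. The probe set for the B1 repeat, a short interspersed element found within many transcripts and introns, read 13.43 and 10.26, a difference of -3.17, while those for the B2 repeat differed by -0.32 and -0.51. The manufacturer's transferrin receptor probe sets were also lower, with differences of -0.72 to -0.98, as were those of pyruvate carboxylase, with -0.35 to -0.68. All 14 fibroblast markers reached the floor in both total arrays, the 8 pluripotency and 5 erythroid markers reached it in neither, and of 15 macrophage markers 3 reached it in the wild-type library and 4 in the heterozygote library.

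The distribution of differences was lopsided. The median over the 7180 genes was 0.19, the quartiles lay at -0.13 and 0.40, and 4745 genes (66.1%) were above 0. The lower tail was the longer one, with the lowest 1% of genes at -1.10 or below and the highest 1% at 0.81 or above. At 2-fold, 107 genes (1.49%) were lower and 17 (0.237%) were higher in the library labelled heterozygote, and at 1.5-fold 447 (6.23%) were lower and 533 (7.42%) higher. Relative to the median gene the split was 208 lower and 3 higher, and after a loess trend on level was removed it was 192 lower and 5 higher. Nearest to the 2-fold line, Cad (8.66 and 7.66) and Sdha, with a difference of -1.003, were inside, and Eif5b with -0.997 and Lamb2 with -0.9999 were outside. Because total RNA was bulk RNA, fewer cells of a kind and less of a transcript per cell cannot be told apart in any of these values.

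**Figure D1:**
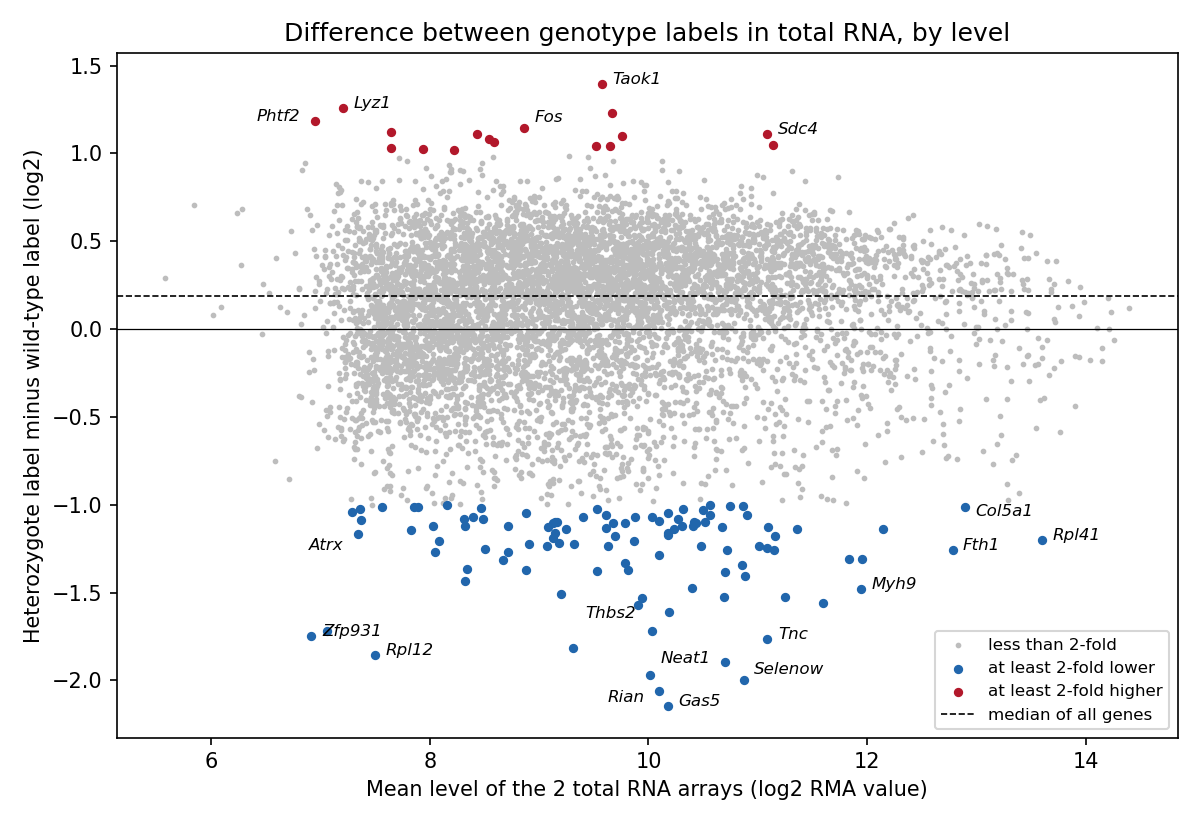
Difference in total RNA (heterozygote label minus wild-type label, log2) of 7180 genes against the mean level of the 2 total RNA arrays (log2 RMA value), 1 point per gene, with 107 genes at least 2-fold lower in blue and 17 at least 2-fold higher in red. The dashed line is the median of all genes, 0.19. The lowest point is Gas5, at -2.15, and the highest Taok1, at 1.39.

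The called genes had the same sign in polysome RNA without exception: 17 of 17 higher genes, with 5 of them past 2-fold there, and 107 of 107 lower genes, with 73 past 2-fold. Their median difference was 1.10 in total and 0.85 in polysome RNA for the higher genes, and -1.17 and -1.10 for the lower ones, beside a median of all genes of 0.19 and 0.11. Of 61 called genes with another probe set at or above the floor, 58 had the same sign in the next brightest, and 33 were past 2-fold in it too. The exceptions were Rbfox2, Runx1 and Asph. The matching shares over all kept genes, in polysome RNA and between probe sets, are not given here. These counts therefore do not set the called genes apart from other genes. Of the genes past 2-fold, 5 higher and 14 lower ones were below the floor in at least 1 of the total arrays.

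The 124 called genes were placed in 17 functional groups by hand after their values were seen, so the groups describe the calls and carry no test. In 8 of these groups every called gene was lower: matrix, cytoskeleton, non-coding RNA, translation, nuclear transport, endoplasmic reticulum and Golgi, metal and selenium biology, and ubiquitin and proteasome. Of all 124 called genes 107 were lower, so a small group with only lower genes lies near that share. Ubiquitin and proteasome held 4 called genes, and translation and nuclear transport 5 each. Secreted factors, and transcription factors with single-strand binding proteins, held only higher genes as the groups were drawn. Stat3, a transcription factor called lower, was placed with signalling, and the lower zinc-finger gene Zfp931 outside the groups. The groups are taken in turn below, each beside a wider list of genes of the same function.

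Spliced hosts of small nucleolar RNAs and long non-coding RNAs had the lowest median of the functional lists and included the lowest single genes, Gas5 and Rian. Small nucleolar RNAs, which guide methylation and pseudouridylation of ribosomal RNA, are cut from the introns of such host transcripts, and the spliced remainder codes for no long protein and is usually short-lived. Gas5, the host of several box C/D small nucleolar RNAs, read 11.25 in the library labelled wild type and 9.10 in that labelled heterozygote, a difference of -2.15 that was the lowest among all 7180 genes; in polysome RNA it read 11.75 and 9.22. Another probe set of Gas5 gave the same difference, -2.15. Snhg6 read 11.65 and 9.75, a difference of -1.90. Snhg8 read 10.21 and 8.40, a difference of -1.82. These hosts were lower in both kinds of RNA, with polysome differences of -1.81 for Snhg6 and -1.93 for Snhg8.

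The long non-coding RNAs called were all lower as well. Rian, from the imprinted Dlk1-Dio3 region and itself a host of box C/D small nucleolar RNAs, read 11.13 and 9.07 (-2.06). Meg3, transcribed from the same imprinted region, read 12.61 and 11.29 (-1.31), and its other probe sets at or above the floor read -0.92 to -1.38. Neat1, the scaffold of nuclear paraspeckles, read 11.003 and 9.03 (-1.97). Oip5os1, also known as Cyrano, was lower by a difference of -1.09. Of the wider list of such RNAs, 11 were on the array and 9 were kept. Of the 9, 6 were past 2-fold, all lower, beside 1.49% of all genes. The median was -1.82, beside 0.19 for all genes. Malat1 was the highest of the 9, at -0.18.

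**Figure D2:**
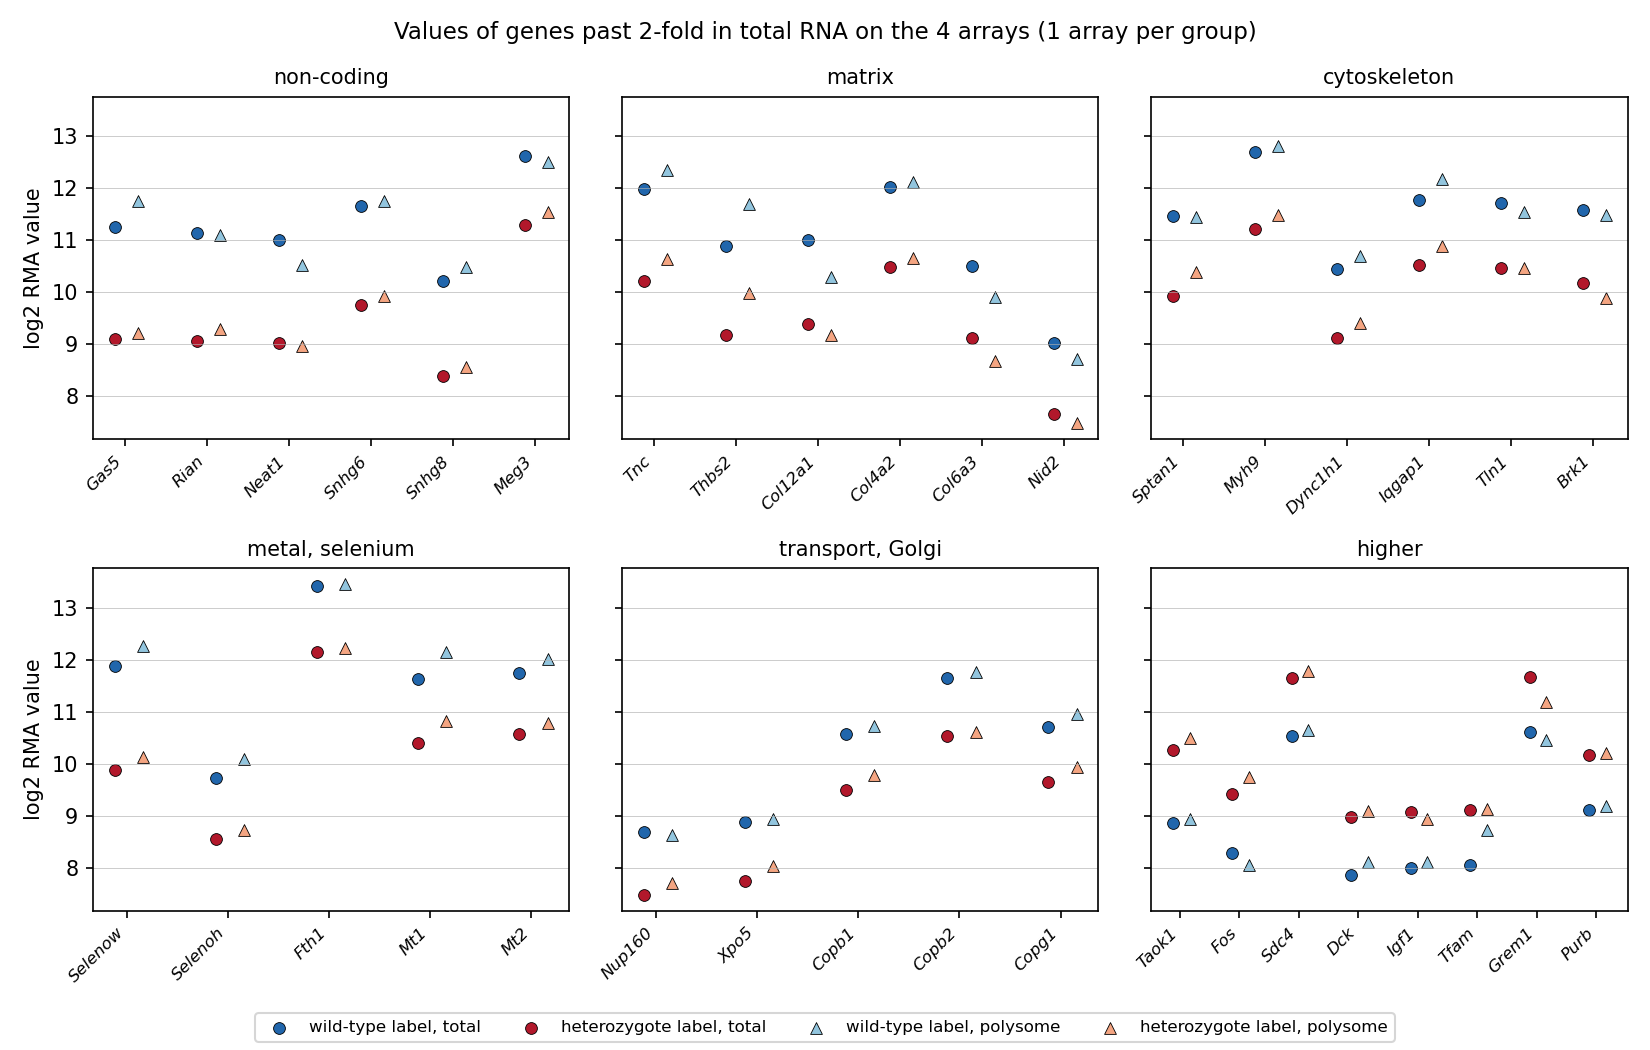
Log2 expression values on each of the 4 arrays for genes past 2-fold in total RNA, in 6 panels by function; circles are total RNA, triangles polysome RNA, blue the wild-type label and red or orange the heterozygote label, 1 array per group. In the first 5 panels the values of the heterozygote label lie below those of the wild-type label in both kinds of RNA, as for Gas5 (11.25 against 9.10 in total RNA), and in the last panel they lie above, as for Fos (8.29 against 9.43).

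Many host transcripts and messengers of the translation machinery begin with a 5-prime terminal oligopyrimidine tract, a C followed directly by a run of C and T letters, through which their translation is regulated. The tract was looked for at the annotated RefSeq starts (GRCm38.p6) as a C followed by at least 4 letters that were each C or T, on the strand of the gene only, beginning within 5 bases of the start. The windows shown run from 10 bases before the start to 20 after it, with the tract in capitals, for the host RNAs and ribosomal proteins with the lowest values and an annotated start, and for Rpl41, Rpsa and Fos, whose windows hold none. Gas5 has another annotated start without the tract.
Gas5, chr1:161035156-161035185, plus strand: ccatctcagcCTTTCggagctgtgcggcat
Snhg8, chr3:123508317-123508346, minus strand: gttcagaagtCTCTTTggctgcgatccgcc
Rps27, chr3:90213629-90213658, minus strand: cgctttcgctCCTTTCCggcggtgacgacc
Rpl12, chr2:32961702-32961731, plus strand: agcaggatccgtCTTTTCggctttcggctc
Rpl41, chr10:128549149-128549178, minus strand: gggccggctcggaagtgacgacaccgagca
Rpsa, chr9:120127756-120127785, plus strand: ttatttaaggacgtcatttccggccgcccg
Fos, chr12:85473880-85473909, plus strand: ctactactccaaccgcgactgcagcgagca

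The tract was found at 22 of 90 lower genes with an annotated start (24.4%) and at 3 of 15 higher ones, beside 1412 of 5863 kept genes (24.1%) and 18.3% of all 32851 starts in the table. It was found at 10 of 19 small-subunit (52.6%) and 11 of 21 large-subunit (52.4%) ribosomal protein genes. The share found by this search among the called genes was thus near that among all genes. A tract at a start other than the annotated ones would be missed. Over all kept genes the median difference was 0.17 with the tract and 0.20 without it.

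Ribosomal protein genes lay below the median gene, most by modest amounts. All 22 small-subunit genes measured were below it, with a median of -0.28, and 21 of 23 large-subunit genes were, with a median of -0.17. Only Rpl12 and Rpl41 were past 2-fold, both lower, beside 1.49% of all genes. Rpl12, a protein of the ribosomal stalk base, read 8.42 and 6.57 (-1.85), the value of the heterozygote library being below the floor. The Rpl12 probe set was dim beside those of Rpl41 and of Rplp0 (13.83 and 13.26). Whether it reports the main transcript of the gene was not tested. Rpl41, the shortest ribosomal protein, read 14.20 and 13.00 (-1.20), and another probe set of it differed by -0.70. Rps27, a zinc-finger protein of the small subunit, was just short of 2-fold at 8.62 and 7.63 (-0.99), also from a dim probe set. Rpsa, also known as the laminin receptor, differed by -0.77, Rps29 by -0.75 and Rps20 by -0.69. Ribosomal protein genes have many near-identical pseudogene copies in the genome, so a probe set may read more than its own gene.

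Aminoacyl-tRNA synthetases, the enzymes that charge transfer RNAs, had a list median of -0.47. Of 18, 17 were below the median gene and 3 were past 2-fold, all lower, beside 1.49% of all genes. Lars, the leucyl enzyme, read 10.47 and 9.26 (-1.21). Eprs, which charges glutamate and proline, read 10.80 and 9.66 (-1.14), with other probe sets at -1.35 and -1.75. Qars, the glutaminyl enzyme, read 10.64 and 9.55 (-1.09), with others at -0.81 and -0.44. Aars, the alanyl enzyme, came next at -0.97, and Hars was the highest at 0.35. Among 45 initiation and elongation factors none was past 2-fold, beside 1.49% of all genes lower and 0.237% higher. The median of these factors was -0.08. Eif5b, which joins the ribosomal subunits, and Pabpc1, the poly(A)-binding protein, differed by -0.997 and -0.88.

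Of 70 ribosome biogenesis genes kept, the list in which Npm1 itself stands, none was past 2-fold in either direction. Of all genes, 1.49% were lower and 0.237% higher, so a list of this size without a call lies near those shares. The list median was -0.05, and 51 of the 70 genes lay below the median gene. The lowest were Ftsj3, a methyltransferase-related processing factor (-0.94), Heatr1, a factor of the small-subunit processome (-0.86), and Utp20 (-0.81). The list of telomere and H/ACA genes, which bear on dyskeratosis congenita, the disorder named in the study's title, held 13 kept genes with a median of 0.19, equal to that of all genes to this precision. None of the 13 reached 1.5-fold, beside 7.42% of all genes higher and 6.23% lower, so a list this small lies near those shares. The genes ran from Ctc1 at -0.54 to Ten1 at 0.56, both parts of the telomeric CST complex.

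The extracellular matrix was the largest functional group, with 18 called genes, all lower. Tnc, encoding tenascin-C, a matrix glycoprotein of developing and wounded tissue, read 11.97 and 10.21 (-1.76), with a polysome difference of -1.71. Thbs2, encoding thrombospondin-2, read 10.89 and 9.17 (-1.72), with another probe set at -1.05. Col12a1, a collagen that decorates the surface of fibrils, read 10.996 and 9.39 (-1.61). In each of these genes the library labelled heterozygote was the lower of the pair in both kinds of RNA.

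Collagen genes were lower by unequal amounts. All 19 kept collagen genes were below 0 as well as below the median gene, and 9 were 2-fold lower, beside 1.49% of all genes. The list median was -0.97. Over all 29 collagen genes on the array, those under the floor included, it was -0.44. The network-forming basement membrane collagens Col4a2 (12.02 and 10.49, a difference of -1.53), Col4a1 (-1.14) and Col4a5 (-1.10) were all past 2-fold. So were Col11a1 (-1.38), Col5a1 (-1.02) and Col5a3 (-1.02), which nucleate fibrils, and Col6a3 (-1.37) and Col6a1 (-1.01), of beaded microfibrils. The chains of type I collagen, the main fibrillar collagen of fibroblasts, were the highest of the list. Col1a1 read 14.13 and 13.95 (-0.17), and Col1a2 14.21 and 14.10 (-0.11). Both lay near the highest mean level of any kept gene, 14.40, and whether the arrays resolve differences fully at that level was not tested. Col3a1 stood at -0.49. The enzymes that modify and fold collagen did not share the size of this difference, with a median of -0.06. None of these 19 was past 2-fold, beside 1.49% of all genes lower and 0.237% higher.

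Other basement membrane and matrix proteins followed. Among 43 kept matrix glycoproteins and proteoglycans, 34 were below the median gene and the median was -0.41. Of the 43, 9 were past 2-fold, all lower, beside 1.49% of all genes. The laminin chains Lamb1 (10.74 and 9.46, a difference of -1.28) and Lamc1 (-1.27), which polymerise into the basement membrane sheet, were lower together with the nidogens that link laminin to collagen IV, Nid2 (9.03 and 7.66, a difference of -1.36) and Nid1 (-1.31). Ltbp1 and Ltbp2, members of the latent TGF-beta binding protein family, both differed by -1.10. At the other end were secreted regulators such as Igfbp5, an IGF-binding protein, at 0.72, Ccn4 at 0.55 and Igfbp3 at 0.54. Of the small leucine-rich proteoglycans, Dcn stood at 0.23, Bgn at 0.16 and Lum at -0.07. In the same libraries the marker list of chondrocytes and osteoblasts was lower in its summed level, 11.3 against 10.6, with 1 of 7 markers at the floor in either library. That marker was Col2a1 (10.96 and 9.99), which the list shares with the collagens, and the lower sum rests on it. The other markers differed by -0.23 to 0.05. The part of this list in the result was not tested.

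Integrins and focal adhesion proteins had a median of -0.37 over 24 genes, 10 of them above 0. Of the 24, 2 were 2-fold lower, beside 1.49% of all genes. Tln1, encoding talin, which couples integrins to actin, read 11.71 and 10.46 (-1.25), and Itga8, an integrin alpha chain, read 8.36 and 7.34 (-1.01). Flna, the actin crosslinker filamin A, differed by -0.85, and Vcl, encoding vinculin, by -0.73 with another probe set at -1.69. Further surface proteins past 2-fold were Cemip, which takes part in hyaluronan breakdown (9.03 and 7.60, a difference of -1.43), Cd109, a GPI-linked TGF-beta co-receptor (-1.23), Igf2r, the receptor for IGF2 and mannose 6-phosphate (-1.17), Myof, a membrane repair protein (-1.16), and Mrc2, an endocytic collagen receptor (-1.10). The 1 surface protein called higher was Sdc4, encoding the heparan sulfate proteoglycan syndecan-4, which read 10.53 and 11.64 (1.11), with another probe set at 0.62.

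All 11 called genes of the cytoskeleton were lower. Sptan1, encoding spectrin alpha, read 11.46 and 9.93 (-1.53). Myh9, the heavy chain of non-muscle myosin IIA, read 12.69 and 11.20 (-1.48), and its 3 other probe sets at or above the floor gave -1.15 to -1.71. Dync1h1, the heavy chain of cytoplasmic dynein, read 10.45 and 9.12 (-1.33). These are large motor and scaffold proteins, but Brk1, a small subunit of the WAVE actin-nucleating complex, was as far down, at 11.58 and 10.18 (-1.41) with another probe set at -1.37. Iqgap1, a scaffold for Rac1 and Cdc42, read 11.78 and 10.52 (-1.26), Dbn1, the actin-binding drebrin, differed by -1.12, and Map1b, a microtubule-associated protein, by -1.12. The wider lists did not lie as far down: 28 actin motor and contractile genes had a median of 0.11, 31 actin turnover genes 0.30, and 34 microtubule genes -0.08.

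**Figure D3:**
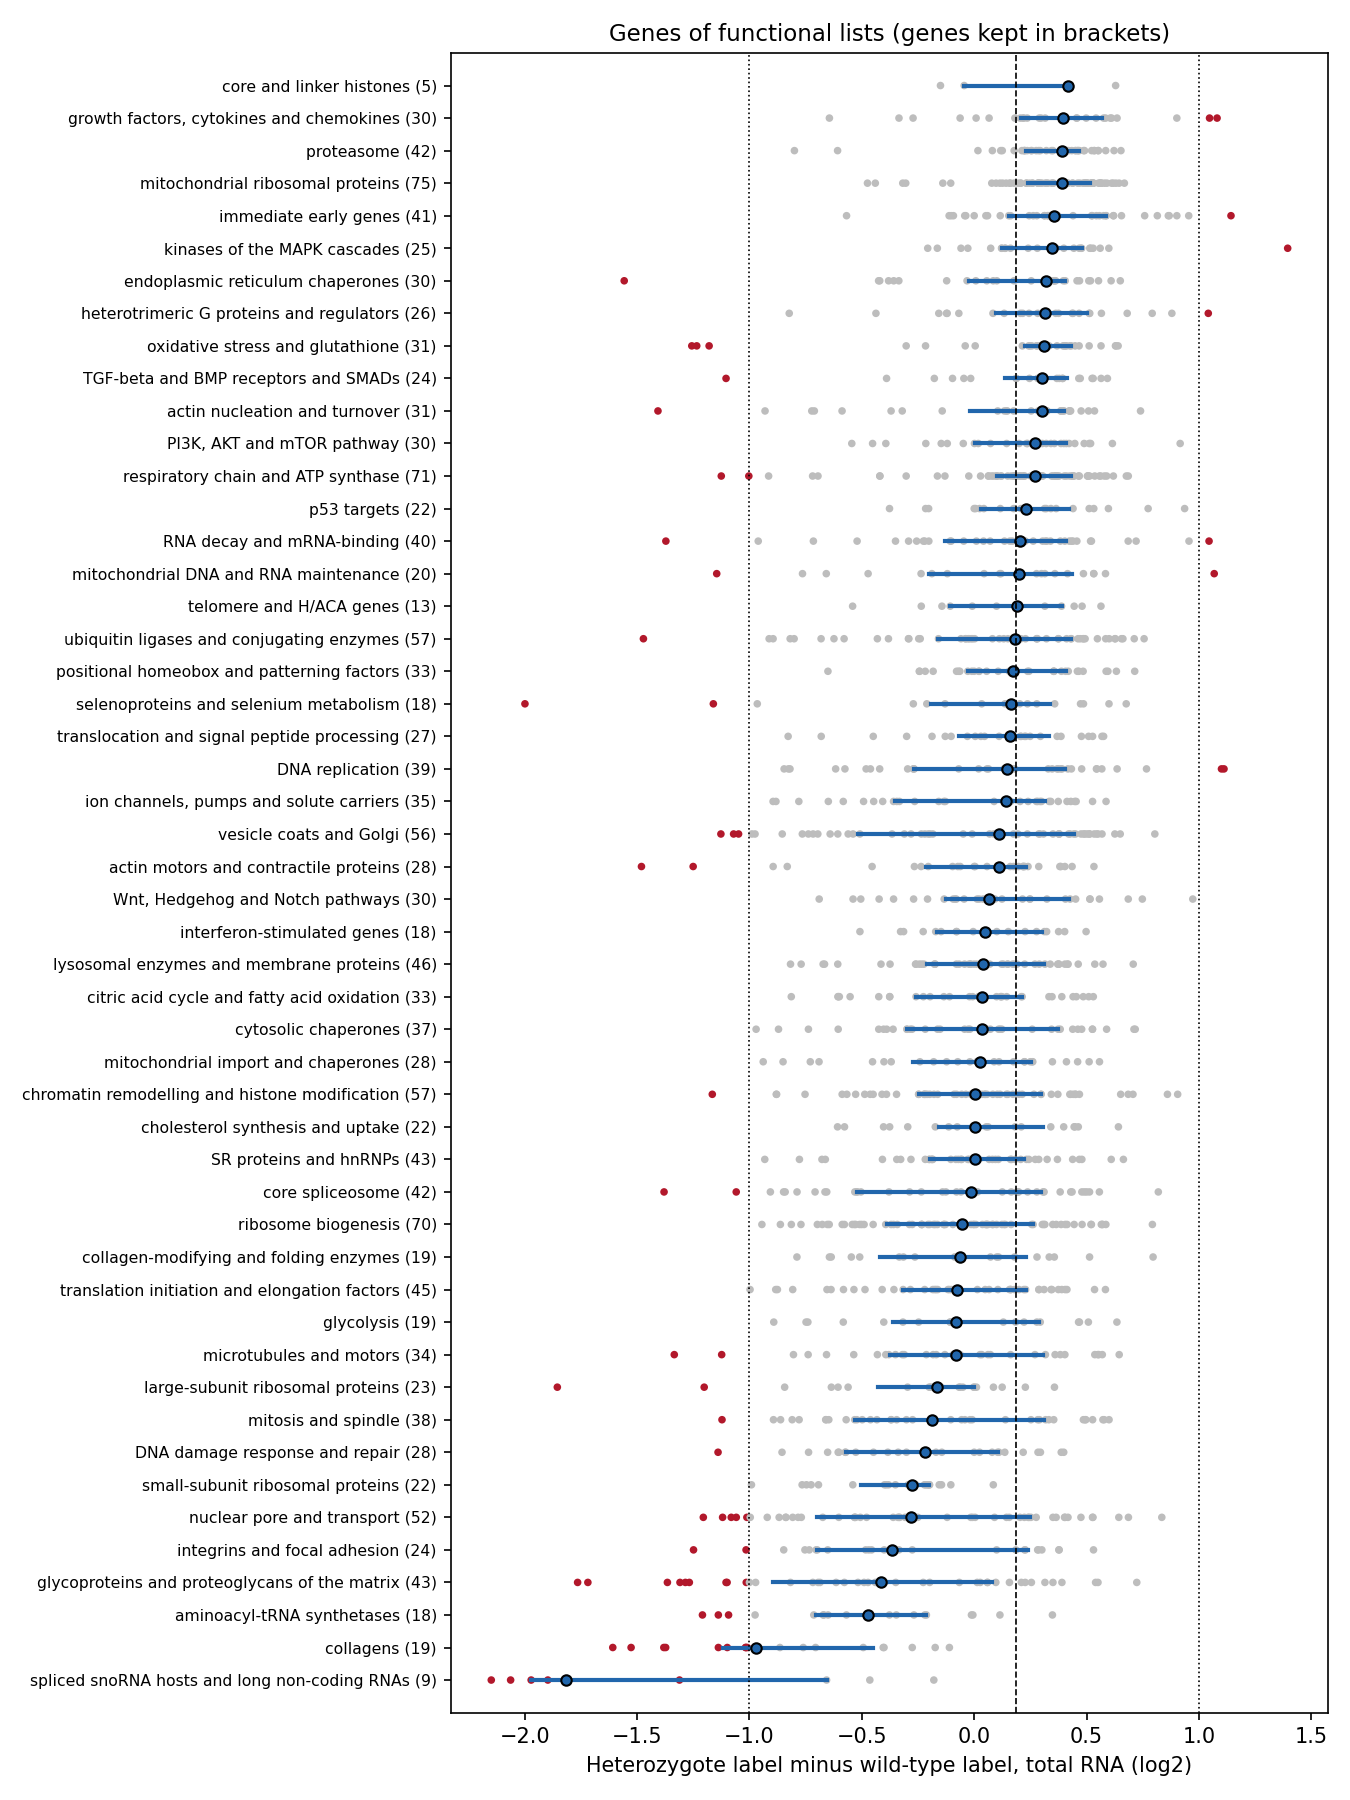
Difference in total RNA (heterozygote label minus wild-type label, log2) of the kept genes of functional lists, 1 point per gene, red where past 2-fold in either direction; the circle is the list median and the bar runs from its lower to its upper quartile. The dashed line is the median of all genes (0.19) and the dotted lines mark 2-fold; the list medians run from -1.82 for non-coding RNAs and -0.97 for collagens to 0.42 for 5 histone genes and 0.40 for growth factors.

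Nuclear transport held 5 called genes, all lower. Its list of 52 genes had a median of -0.28. Of the 52, 35 were below the median gene and 5 were 2-fold lower, beside 1.49% of all genes. Nup160, of the pore's outer ring, read 8.68 and 7.48 (-1.21), and Nup155, of the inner ring, 8.40 and 7.39 (-1.01). Xpo5, which exports microRNA precursors, read 8.88 and 7.76 (-1.12). Of the importins, Ipo4 was at -1.08 with another probe set at -0.53, and Kpnb1, importin beta, at -1.06 with others at -0.87, -0.43 and -0.26 and -0.18 in polysome RNA. At 1.5-fold 15 of the 52 were lower, beside 6.23% of all genes, and 3 higher, beside 7.42%. The higher ones were Xpo7 at 0.83, Xpo6 at 0.69 and Nup37 at 0.64.

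Splicing and RNA processing held 8 lower genes and 1 higher gene. Rsrp1, an arginine- and serine-rich protein, read 10.69 and 9.12 (-1.57). Dhx9, an RNA helicase, read 10.71 and 9.18 (-1.53), with another probe set at -1.25. Prpf8, the scaffold of the spliceosome's catalytic centre, read 10.22 and 8.84 (-1.38), and Sf3b1, which binds the branch site region, 11.09 and 10.03 (-1.06). Xrn2, a nuclear 5-prime exonuclease, was at -1.37 with another probe set at -0.53; Crnkl1, a splicing factor, stood at -1.08, Virma, of the m6A methyltransferase complex, at -1.04 and Ccnl2, a splicing-associated cyclin, at -1.03. The higher gene was Rbfox2, a splicing regulator, at 9.05 and 10.28 (1.23), but its 3 other probe sets at or above the floor read -0.24, -0.06 and -0.04, so the call rests on 1 probe set. Core spliceosome genes had a median of -0.01 and SR proteins and hnRNPs of 0.00.

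In the endoplasmic reticulum and Golgi, 8 genes were called and all were lower. Hsp90b1, the chaperone GRP94, read 12.38 and 10.82 (-1.56), with another probe set at -0.72. Rrbp1, a ribosome-binding membrane protein, differed by -1.34 with others at -0.71 and -0.55, and Ktn1, encoding kinectin, by -1.11. Asph, an aspartyl hydroxylase, was at -1.10 but had other probe sets at 0.26 and -0.41. Hsp90b1 stood apart from its own list, since 30 chaperones of the endoplasmic reticulum had a median of 0.32; Hspa5, the chaperone BiP, was at -0.34, and Edem1, which marks misfolded glycoproteins for degradation, was the highest at 0.65.

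Subunits of the same complex differed in several cases. The sets of subunits shown were chosen after the values were seen. In the COPI coat, which carries cargo back from the Golgi, Copb2 (11.65 and 10.53, a difference of -1.13), Copb1 (10.57 and 9.50, a difference of -1.07), Copg1 (-1.05) and Copa (-0.97) were low, while Cope (0.49), Copz1 (0.49) and Copz2 (0.31) were above the median gene. In the COPII coat, which buds from the endoplasmic reticulum, Sec24d (-0.74), Sec23b (-0.72), Sec31a (-0.61) and Sec23a (-0.54) contrasted with the small GTPase Sar1a (0.51) and with Sec13 (0.43). Of the 9 COPII genes, 3 lay above the median gene and 6 below it. The clathrin heavy chain Cltc was at -0.99 and the light chain Cltb at 0.54, with the small adaptor subunit Ap2s1 at 0.80.

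The same split was seen elsewhere. Of non-muscle myosin II, the heavy chain Myh9 (-1.48) and the essential light chain Myl6 (9.13 and 7.88, a difference of -1.25) were lower, and the regulatory light chains Myl9 (0.40), Myl12a (0.22) and Myl12b (0.53) were above the median gene. The Myl6 probe set was dim beside those of Myl9 (13.27 and 13.67) and Myl12a (13.36 and 13.59). Whether it reports the main Myl6 transcript was not tested. Dynein's heavy chain Dync1h1 (-1.33), its subunits Dynll1 (-0.74) and Dync1i2 (-0.39), and the dynactin subunit Dctn1 (-0.80) contrasted with Dctn3 (0.65) and Dctn2 (0.40). Of the 10 dynein and dynactin genes, 5 lay above the median gene and 5 below it. Of the SF3b splicing complex, Sf3b1 (-1.06), Sf3b3 (-0.91) and Sf3b2 (-0.79) contrasted with the small subunits Sf3b5 (0.38) and Sf3b6 (0.31). Of succinate dehydrogenase, the flavoprotein Sdha read 11.06 and 10.06 (-1.003), and the iron-sulfur subunit Sdhb 11.10 and 11.68 (0.59). Brk1 (-1.41) was the exception in the WAVE complex, whose other 4 measured subunits lay between 0.13 and 0.54.

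All 14 subunits of the 20S proteasome, the proteolytic core, lay between 0.12 and 0.65. The 19S regulatory particle, like the coats, held subunits far apart: it ran from 0.02 to 0.46 apart from Sem1, a small intrinsically disordered subunit (10.97 and 9.85, a difference of -1.12), Psmd1 (-0.80) and Psmd2 (-0.61). All 6 subunits of the MCM replicative helicase were below the median gene, from Mcm4 at -0.85 to Mcm5 at -0.27, and so were all 9 subunits of condensin and cohesin measured, from Smc2 at -0.86 to Rad21 at 0.00.

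**Figure D4:**
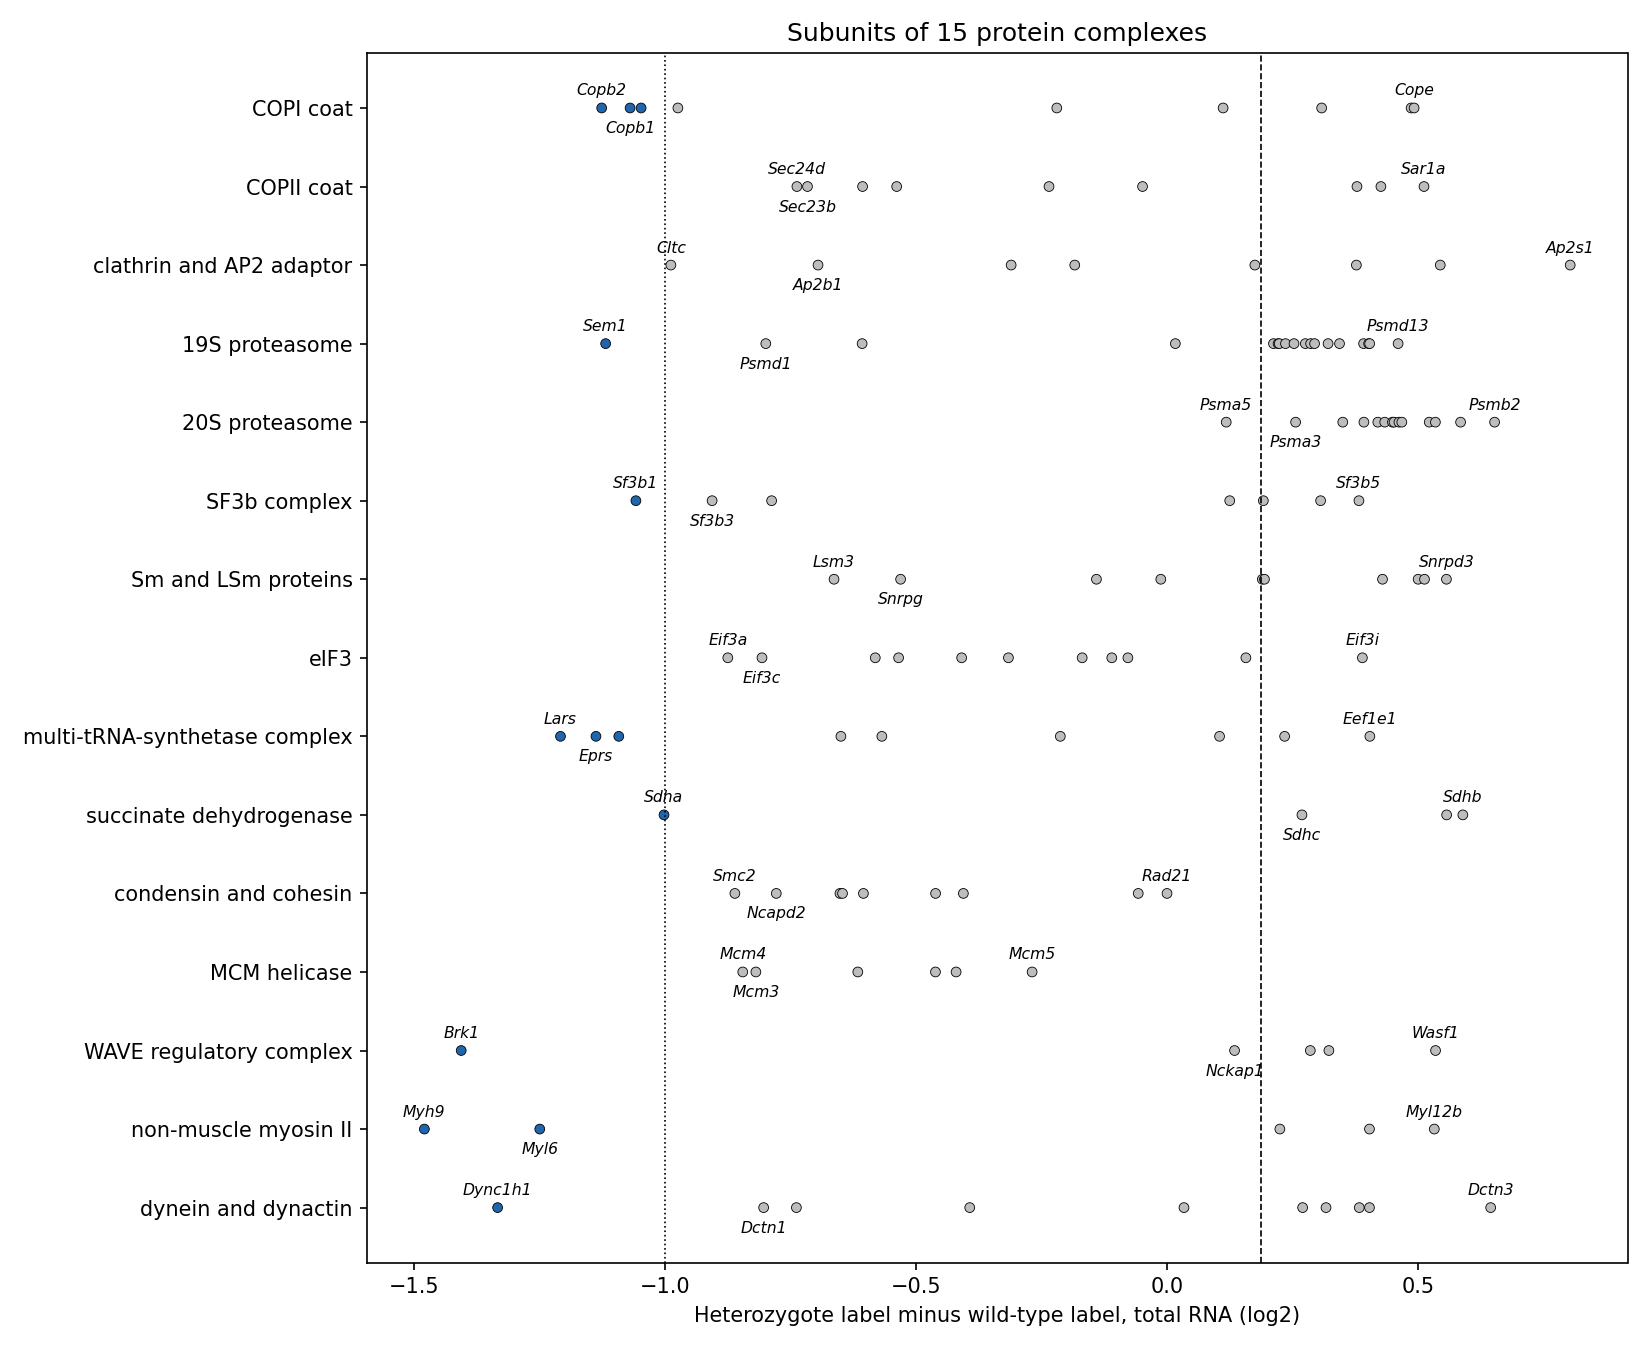
Difference in total RNA (heterozygote label minus wild-type label, log2) of the measured subunits of 15 protein complexes, 1 point per gene, blue where past 2-fold; the dashed line is the median of all genes (0.19) and the dotted line marks 2-fold lower. The lowest 2 and the highest subunit of each complex are named, and the COPI coat spans the range from Copb2 at -1.13 to Cope at 0.49.

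Genes called lower spanned more of the genome than others. Their median span from annotated start to end was 39.1 kb, beside 21.9 kb for 7172 kept genes with a span and 13.9 kb for the 17 higher genes. With genes divided by span into 5 bins of near equal size, the median difference went from 0.21 in the shortest to 0.12 in the longest, and the share called lower from 1.39% to 2.79%, with 0.837% in the bin next to the shortest. Gene span was taken up after the values were seen. In 5 bins of level, 14, 12, 21, 33 and 27 genes were called lower, from the dimmest to the brightest, with the most in the bin next to the brightest.

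Ubiquitin and proteasome genes called were 4, all lower: Cops9, a small subunit of the COP9 signalosome, at 11.14 and 9.66 (-1.47), Sem1, Ddb1, the adaptor of CUL4 ubiquitin ligases and a DNA damage protein (11.93 and 10.79, a difference of -1.14), and Cand1, which exchanges substrate adaptors on cullins (-1.06). The proteasome list of 42 genes had a median of 0.39, with 35 above the median gene. Among 57 ubiquitin ligases and conjugating enzymes the median was 0.18, and, behind Cops9, large ligases lay at its lower end, with Herc2 at -0.91, Ubr2 at -0.89, Ubr3 at -0.82 and Birc6 at -0.80.

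Metal and selenium biology held 6 called genes, all lower. Selenow, encoding a small selenoprotein, read 11.87 and 9.87 (-1.9985), with another probe set at -2.17, and Selenoh, a nucleolar selenoprotein, read 9.72 and 8.56 (-1.16). Gpx1, the cytosolic glutathione peroxidase, was next at 12.12 and 11.15 (-0.96). The remaining selenoprotein genes were spread about the median gene, with Selenot at 0.68 and Selenop at 0.60, and the list median was 0.16 over 18 genes. The metallothioneins Mt1 (11.63 and 10.40, a difference of -1.23) and Mt2 (11.75 and 10.57, a difference of -1.18), which bind zinc and copper, were lower together. So was Fth1, the ferritin heavy chain that stores iron (13.41 and 12.15, a difference of -1.26), with another probe set at -1.25, and Aco1, the iron regulatory protein 1 (11.02 and 9.99, a difference of -1.03).

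Of the genes of oxidative stress and glutathione, a list that includes Fth1, Mt1 and Mt2, 24 of 31 were above the median gene and 7 below it, and the list median was 0.31. Among the lower ones, Cat, encoding catalase, was at -0.30 and Ephx1, an epoxide hydrolase, at -0.22. Gstm1, a glutathione transferase, was at 0.64, and Prdx3, the mitochondrial peroxiredoxin, at 0.63.

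Mitochondrial genes were divided. For the mitochondrial ribosome, 75 protein genes were measured and the median was 0.39; 61 were above the median gene, 6 were at least 1.5-fold higher (beside 7.42% of all genes), none was 1.5-fold lower (beside 6.23%), and the range ran from Mrpl42 at -0.47 to Mrps28 at 0.67. The 71 genes of the respiratory chain and ATP synthase had a median of 0.27, with 2 called lower, beside 1.49% of all genes. These were Ndufs1, the largest subunit of complex I (9.65 and 8.52, a difference of -1.13), and Sdha. Further mitochondrial genes called lower were Nnt, the transhydrogenase that makes NADPH (9.96 and 8.45, a difference of -1.51), Lrpprc, which stabilises mitochondrial messengers (8.40 and 7.26, a difference of -1.15), and Iars2, the mitochondrial isoleucyl synthetase (-1.03). Tfam, which packages and transcribes mitochondrial DNA, was called higher at 8.05 and 9.12 (1.07), and its polysome difference was 0.41.

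Of 5 enzymes of lipid and nucleotide metabolism called, 4 were lower. Fasn, fatty acid synthase, read 9.93 and 8.71 (-1.22). Acly, which supplies its acetyl-CoA, read 11.07 and 9.97 (-1.10), and Cad, the enzyme that starts pyrimidine synthesis, 8.66 and 7.66. Pla2g4a, the cytosolic phospholipase A2, differed by -1.26. None of 19 glycolysis genes was past 2-fold, beside 1.49% of all genes lower and 0.237% higher. The glycolysis list had a median of -0.08. The hexokinases Hk1 (-0.89) and Hk2 (-0.75) and the phosphofructokinase Pfkp (-0.74, another probe set -1.32) were its lowest members. Dck, the deoxycytidine kinase of nucleotide salvage, was called higher, at 7.87 and 8.99 (1.11).

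Chromatin and DNA genes gave few calls. Atrx, a chromatin remodeller, read 7.93 and 6.76 (-1.17), Top2a, the topoisomerase of dividing cells, 9.27 and 8.15 (-1.12), and Mphosph8, of the HUSH silencing complex, 8.93 and 7.86 (-1.07). Chtf8, a subunit of an alternative clamp loader, was called higher at 9.21 and 10.31 (1.10). The 57 chromatin genes had a median of 0.00, from Atrx to Cbx5, a heterochromatin protein, at 0.91. The DNA damage list lay lower, with a median of -0.22 and 23 of 28 genes below the median gene; besides Ddb1, Msh6, a mismatch repair protein, was at -0.85 and Smc5 at -0.74. Mitosis and spindle genes had a median of -0.19, with Kif20a at -0.89 but Nusap1 at 0.60 and Pttg1 at 0.57, and the list's position below the median gene was lost with a stricter floor at 9.33.

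Of the p53 targets, none was past 2-fold, beside 1.49% of all genes lower and 0.237% higher. The list of 22 kept genes had a median of 0.23. Its highest member, Cdkn2a, encodes p16 and Arf and is not itself a p53 target. Cdkn2a read 7.71 and 8.65 (0.94). Next came Zmat3 at 10.45 and 11.23 (0.77) and Cdkn1a, the cell cycle inhibitor p21, at 12.73 and 13.32 (0.60). In polysome RNA Cdkn2a differed by 0.08 only.

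Signalling genes called lower were Pkig, a protein kinase A inhibitor (-1.27, another probe set -2.07), Ogt, which adds O-GlcNAc to proteins (-1.19, others -0.40 to -1.17), Stat3, a transcription factor of cytokine signalling (10.83 and 9.81, a difference of -1.02), and Akap12, a kinase anchor (-1.01). Those called higher were Taok1 and Gna13. Taok1, a kinase upstream of p38 and JNK, had the highest difference of all genes, at 8.87 and 10.27 (1.39), and its 3 other probe sets at or above the floor read 0.59 to 0.71. Gna13, a heterotrimeric G protein alpha subunit, read 9.002 and 10.04 (1.04), while its other probe sets ranged from 0.03 to 1.00. Around them, kinases of the MAPK cascades had a list median of 0.35 over 25 genes, and heterotrimeric G proteins and their regulators 0.32 over 26.

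Immediate early genes, the transcription factors and phosphatases that serum and stress induce within minutes, lay above the median gene in 29 of 41 cases. Fos read 8.29 and 9.43 (1.14) in total RNA and 8.06 and 9.74 in polysome RNA, a difference of 1.68 there. It was the only member past 2-fold, but 12 of the 41 were at least 1.5-fold higher, beside 7.42% of all genes, and none was 1.5-fold lower, beside 6.23%. These included Junb (9.20 and 10.15, a difference of 0.95), Hbegf, an EGF receptor ligand (10.86 and 11.76, a difference of 0.90), Egr1 (11.30 and 12.16, a difference of 0.87) and Gadd45g (0.86). The list median was 0.35. Nr4a3 was its lowest member, at -0.57.

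Secreted factors made up a group with only higher calls. Igf1, insulin-like growth factor 1, read 7.9998 and 9.08 (1.08), with another probe set at 0.21. Grem1, a BMP antagonist, read 10.61 and 11.66 (1.05). Edn1, endothelin-1, read 7.43 and 8.45 (1.02), the value of the wild-type library being below the floor. Of the wider list of growth factors, cytokines and chemokines, 30 of 56 genes were kept, 23 of them above the median gene, and the median was 0.40; Fst, encoding follistatin, was at 0.64 and Tgfb1 and Lif each at 0.61, while Bmp1, a procollagen protease despite its name, was lowest at -0.64.

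Lyz1, a lysozyme gene, was the other secreted product called higher, at 6.58 and 7.84 (1.26) in total RNA and 9.87 and 10.72 in polysome RNA. Another probe set of Lyz1 differed by 0.50, and a further one, below the floor, read 4.98 and 5.02 (0.04). The call thus depends on the probe set. Lyz1 is itself on the macrophage marker list, of which all 15 genes were higher in the library labelled heterozygote, by 0.01 to 1.26. Their median of 0.23 stands beside 0.19 for all kept genes, of which 66.1% were above 0. Their summed level was 10.5 and 10.9. In polysome RNA Csf1r (7.81 and 7.62), Laptm5 and Adgre1 were lower under the heterozygote label, and the other markers were higher. Most of these genes were below the floor, with the pan-leukocyte gene Ptprc at 4.73 and 4.87 and the macrophage gene Adgre1 at 5.64 and 5.66. The part of such cells in the higher genes was not tested.

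The remaining higher calls were regulators of transcription and genes of less certain role. Runx1, a runt-domain transcription factor, read 7.08 and 8.20 (1.12), but its 3 other probe sets at or above the floor read 0.82, -0.15 and -0.25, so that the sign depends on the probe set. Purb, a single-strand DNA and RNA binding protein, read 9.12 and 10.17 (1.04), with others at 0.59 and 0.91. Atn1, encoding the co-repressor atrophin-1, read 7.71 and 8.73 (1.02). Phtf2 (6.35 and 7.54, a difference of 1.18) and Leng1 (7.13 and 8.16, a difference of 1.03) were below the floor in the wild-type library. Lower genes outside the groups included Zfp931, a zinc-finger gene (7.79 and 6.04, a difference of -1.75), Lmo7 (7.91 and 6.20, a difference of -1.72), Erdr1 (-1.23), Wdr6 (-1.18) and Ciao2a, of the cytosolic iron-sulfur assembly pathway (-1.07).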

How the data were processed

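Expression was measured on 4 Affymetrix 3-prime arrays, 1 per group, grouped by their labels. The authors deposited log2 values for 22690 probe sets; per the submitters' processing notes these were made with R 3.4.3, affy 1.56.0 and RMA, which corrects background, normalises between arrays and summarises probes. Settings are not given in the sources used here. RMA scales arrays to each other, so a shift of all transcripts would not show.

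Of the probe sets, 20393 had 1 gene symbol and were named, 691 had several, 1555 were not listed in the annotation and 64 were controls; 20364 matched RefSeq (GRCm38.p6) by Entrez number, with 0 symbols changed. Values were compared with Python 3.11.15, pandas 2.3.3, numpy 2.4.6 and statsmodels 0.14.6, and plotted with matplotlib 3.10.9. The calculation was checked on simulated data. With 1 array per group there was no test, and precision is limited by the number of arrays.

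The genes, the 51 gene lists and the alternatives were chosen with earlier results of these data known. Every gene past 2-fold could be named, with up to 6 members of each list farthest from the median gene and any other probe set at or above the floor that had the opposite sign or differed by over 0.5; further genes are named to show the range of a list or complex. Functional groups, complexes and gene span were chosen after values were seen. Protein length, planned as a description, was not analysed here, and gene span was used in its place. The result of 1 list is not reported here.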

Additional observations from a re-analysis of the deposited data

How the results depend on the processing

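The counts of 107 lower and 17 higher genes and the median of 0.19 were recomputed under other choices. The count of higher genes moved to 10 with each gene's probe sets averaged, 9 with a floor at the 75th percentile (9.33), 9 after quantile normalisation, 5 after a loess trend (span 0.3) and 3 relative to the median gene; lower genes numbered 192 and 208 under the last 2, and between 83 and 153 under the other choices of probe set, floor and scaling. At 1.5-fold there were 533 higher and 447 lower genes, and at 3-fold 0 and 12. All 107 lower genes remained past 2-fold under centring, quantile normalisation, loess and relative to the median gene, while 17, 8, 5 and 3 of the higher ones did. Each of these scalings moved the median difference down, if only to 0.186 with centring. Lower genes could thus hardly drop out, and their retention there is no check on them. With probe sets averaged, 73 lower and 8 higher of the 118 still present remained past 2-fold. The median over genes was 0.08 after quantile normalisation, 0.02 after loess and 0.02 without a floor. Runx1 turned to -0.25 with the probe set brightest in the total arrays. Relative to all genes, the medians of 8 of 51 lists changed sign with the mean of probe sets, 12 without a floor, 6 with the stricter floor, 4 after quantile normalisation and 3 after loess; histones, DNA replication, p53 targets, vesicle coats and ubiquitin ligases were among them. No paired analysis was possible because each group has 1 array and no replicate numbers. No array could be left out, since each group would then be empty.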
